A study of Homo sapiens with 12 samples.

Results

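The genes described here are the genes whose products meet in the fusions of Ewing sarcoma, together with their close relatives. They were the rows of the deposited count table named EWSR1, TAF15, FLI1, ERG, FEV, ETV1, ETV4, ETS1 and ETS2, and all 9 were found among the 57169 genes of the table. RNA was counted in 12 libraries of tumours grown from SK-ES1 cells in host animals (xenografts). SK-ES1 is an established line of Ewing sarcoma. There were 6 libraries of tumours with knock-down of RING1B, encoded by RNF2 and a ubiquitin ligase of Polycomb repressive complex 1, and 6 of control tumours that the labels call wild-type. The labels name neither the host species, the animals' age, the silencing agent nor a control agent, and leave unsaid whether each library is another animal. The p-values therefore reflect only how these libraries scatter, which may in part be technical. The study set RING1B knock-down against control tumours, and the comparison here asks whether the genes that build the fusion, or their relatives, moved with it.

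EWSR1 and TAF15 belong to the FET family of RNA-binding proteins, which are made in nearly every cell and carry a disordered amino-terminal region that activates transcription when it is joined to a DNA-binding domain. FLI1, ERG, FEV, ETV1, ETV4, ETS1 and ETS2 are ETS transcription factors, which bind GGAA-containing DNA through a shared winged-helix domain. In Ewing sarcoma a translocation joins the start of a FET gene to the end of an ETS gene, most often EWSR1 to FLI1, next most often EWSR1 to ERG, and rarely EWSR1 to FEV, ETV1 or ETV4. ETS1 and ETS2 are not usual partners, but they lie beside FLI1 and ERG in the genome.

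The bases that meet in the fusion are shown because the counts of EWSR1 and FLI1 hold reads of both the intact genes and the fused gene. SK-ES1 is known to carry the junction of EWSR1 exon 7 with FLI1 exon 5. The first line is the end of EWSR1 exon 7 (hg38 chr22:29287105-29287134, plus strand) and the second the start of FLI1 exon 5 (chr11:128781958-128781987, plus strand), each 5′ to 3′ and 30 bases long.
EWSR1 exon 7 end: gccaacagagcagcagctacgggcagcaga
FLI1 exon 5 start: gttcactgctggcctataatacaacctccc
The reading frame had the same phase at both edges, so FLI1 exon 5 continues the frame of EWSR1 exon 7. From exon 5 to its end, FLI1 holds 6287 of the gene's 8172 exon bases (76.9%), and EWSR1 up to exon 7 holds 4154 of its 10326 exon bases (40.2%). Reads over the junction were not counted separately, so the share of either gene's counts that came from the fusion cannot be told apart from the share of the intact gene.

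The ETS relatives are set beside FLI1 at the codons of the recognition helix, the part of the ETS domain that reads the GGAA core. Each line gives 42 coding bases (14 codons) 5′ to 3′ on the gene's own strand, and in the lines after FLI1 the capitals mark bases equal to those of FLI1.
FLI1 (chr11:128810617-128810658, plus strand): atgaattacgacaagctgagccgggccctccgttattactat
ERG (chr21:38383724-38383765, minus strand): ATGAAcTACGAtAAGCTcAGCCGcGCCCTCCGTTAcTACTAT
FEV (chr2:218982057-218982098, minus strand): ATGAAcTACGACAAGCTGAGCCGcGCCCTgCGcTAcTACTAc
ETS1 (chr11:128462496-128462537, minus strand): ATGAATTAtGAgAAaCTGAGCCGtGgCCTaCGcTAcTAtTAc
ETS2 (chr21:38822713-38822754, plus strand): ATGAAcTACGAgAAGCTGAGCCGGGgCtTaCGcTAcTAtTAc
ETV1 (chr7:13900759-13900800, minus strand): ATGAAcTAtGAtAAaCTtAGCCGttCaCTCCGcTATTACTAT
ETV4 (chr17:43529156-43529197, minus strand): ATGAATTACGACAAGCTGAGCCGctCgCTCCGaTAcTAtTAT
ERG and FEV encode the same 14 of 14 residues here as FLI1, ETV1 and ETV4 13 of 14, and ETS1 and ETS2 12 of 14. Over the whole ETS domain of 85 codons, ERG shared 97.6% of residues with FLI1 and FEV 87.1%. ETS2 shared 64.7%, ETS1 63.5%, and ETV1 and ETV4 58.8% each. Despite this likeness no stretch of 50 bases of any of these genes' transcripts was shared with another of the 9, so a perfectly matching read of that length belongs to only 1 of them.

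Libraries held between 23859184 and 26678325 counts, so that 3 reads of a gene equalled 0.109 to 0.128 CPM, a gene's reads relative to its library's size, adjusted by edgeR's TMM factors. RNF2 was at 12.4, 18.4 and 23.4 CPM (lowest, median and highest) in the 6 knock-down libraries, against 37.5, 49.2 and 57.9 CPM in the 6 control libraries, and the groups did not overlap. The log2 fold change, knock-down over control, was -1.43 with an SE of 0.174 (edgeR quasi-likelihood adjusted p = 0.00347). Of the 8 Ewing sarcoma marker genes listed for the tumour, 7 passed the low-count filter. CD99, the surface antigen used in diagnosis, was listed at 0 in every library, and it stands in the table with exons on both X and Y. Within groups, control 6 and knock-down 5 stood furthest apart from the rest over all genes. The chi-square per degree of freedom was 107 to 155 between control 6 and the other controls, against 12.05 to 43.9 among those, and 88.4 to 125 between knock-down 5 and 4 of its 5 group members. Knock-down 4 was at 46.1 to 88.4 against its group members and knock-down 2 at 31.0 to 71.0. Among knock-down 1, 3 and 6 the values were 17.9 to 23.6. Knock-down 4 also stood apart for some of the genes below, and those results are given with and without it. A change in the number of cells of a type and a change in RNA per cell cannot be told apart in such bulk tumour libraries.

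Across the 9 genes, none was called different between RING1B knock-down and control at an adjusted p below 0.05, while 49 of the 16519 genes tested in the table were called, 0.297%. The low-count filter kept 7 of the 9, leaving out ERG and ETV4. Of the 7, 5 had a positive log2 fold change and the median was 0.03, against 0.01 over all tested genes. ETS1 alone had an unadjusted p under 0.05, as did 2091 of all tested genes, and its value rested on a single library. For each of the 9 genes the ranges of the knock-down and control libraries overlapped. The share of all tested genes with such overlap is not given here.

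**Figure D1:**
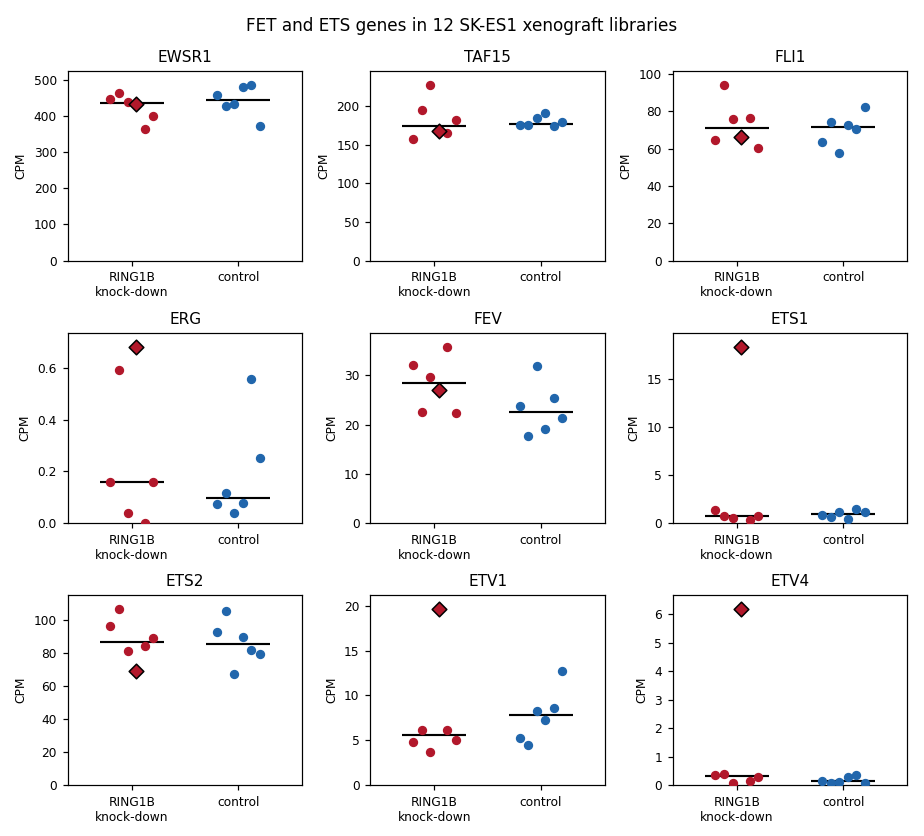
Each panel plots one gene's level in CPM from 0 for the 6 RING1B knock-down libraries (red, left) and the 6 control libraries (blue, right), with black lines at the group medians and a black-edged diamond for knock-down 4. The groups overlap in every panel, and ETS1, ETV1 and ETV4 have a single high library, knock-down 4, at 18.4, 19.6 and 6.17 CPM.

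EWSR1 (ENSG00000182944.17, hg38 chr22:29268009-29300525, plus strand), the usual fusion partner at the start of the protein, was the most abundant of the genes and among the steadiest. Its level was 363.7, 434.6 and 463.3 CPM (lowest, median and highest) in knock-down libraries, against 372, 445 and 485 CPM in control libraries. Knock-down 5 held the lowest value, control 6 the next lowest and control 5 the highest. EWSR1 averaged 424 ± 36.0 CPM in knock-down and 442 ± 41.5 CPM in control libraries (SD, n = 6 each). Its log2 fold change, -0.06, had an SE of 0.092 and an edgeR adjusted p of 0.830, with a 95% interval of the fold from 0.838 to 1.10. Without control 6, knock-down 4 and knock-down 5 the log2 fold change was -0.06 (edgeR adjusted p = 0.801). The fit gave EWSR1 a biological coefficient of variation, the relative spread between libraries beyond counting error, of 0.127, at the 3.65th percentile of all tested genes. Of the 11113 distinct 50-base stretches of EWSR1's transcripts, 3.29% also occur in other genes, most of them in AL596087.1, and how reads aligning to several places were counted is not given in the sources used here.

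TAF15 (ENSG00000270647.5, chr17:35713791-35864615, plus strand), the FET gene known as a fusion partner in other sarcomas, was at 157, 174.5 and 227 CPM in knock-down libraries, against 173, 177 and 190 CPM in control libraries. Both the lowest and the highest library, knock-down 1 and knock-down 3, were in the knock-down group, and all control values lay between them. The means were 182 ± 25.7 CPM in knock-down and 179 ± 6.69 CPM in control libraries (SD, n = 6 each). The fitted log2 difference was 0.02 (SE 0.097, edgeR adjusted p = 0.954), and its 95% interval ran from -0.19 to 0.23.

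FLI1 (ENSG00000151702.16, chr11:128686535-128813267, plus strand), which gives the fusion its DNA-binding domain, was at 60.4, 71.0 and 94.1 CPM (lowest, median and highest) in knock-down libraries, against 57.7, 71.5 and 82.5 CPM in control libraries. The highest value was in knock-down 2 and the lowest in control 3, and the medians of the groups nearly coincided. These levels rested on 1534 to 2225 reads per knock-down library and 1448 to 1970 per control library. FLI1 averaged 72.9 ± 12.2 CPM in knock-down and 70.2 ± 8.69 CPM in control libraries (SD, n = 6 each). The fitted log2 difference was 0.06 (SE 0.121, edgeR adjusted p = 0.887). The 95% interval of the fold, 0.870 to 1.24, bounds what this comparison could show for fused and intact FLI1 RNA together.

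Intact FLI1 is also made in endothelium and blood cells, and such cells of the host were looked for by their markers. The summed level of 12 endothelial genes was 68.3 to 104 CPM in knock-down and 67.6 to 114 CPM in control libraries. Of the 12, 7 passed the low-count filter. Most of the sum was EGFL7, which averaged 56.3 CPM in knock-down and 61.9 CPM in control libraries. The summed level of 12 leukocyte genes was 7.87 to 36.1 CPM in knock-down and 6.52 to 27.4 CPM in control libraries. CD3E and CD2, which define T cells, were at 0 in all libraries. The part of host reads in the counts of FLI1 was not tested. On the opposite strand 162 exon bases of FLI1 overlap SENCR and 167 overlap AP001122.1, and both of those genes had counts of 0.

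ERG (ENSG00000157554.18, chr21:38380027-38661780, minus strand), the nearest relative of FLI1 and a factor of endothelial cells, was barely counted. It had 0 to 16 reads per knock-down library and 1 to 14 per control library. In CPM that was 0, 0.158 and 0.681 in knock-down libraries, against 0.0399, 0.0956 and 0.557 in control libraries. Knock-down 4, knock-down 2 and control 5 were the highest, and most of the other libraries were near or under the level of 3 counts. ERG therefore had no test in the filtered table, and a difference was not detectable at this depth. With no filter its log2 fold change was 0.51, with an unadjusted p of 0.505 and an adjusted p of 0.819 by edgeR.

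FEV (ENSG00000163497.2, chr2:218981087-218985657, minus strand), known from serotonergic neurons, where it drives the genes of serotonin synthesis, had 535 to 857 reads per knock-down library and 465 to 801 per control library, and its median was higher in the knock-down group. Its level was 22.3, 28.4 and 35.8 CPM (lowest, median and highest) in knock-down libraries, against 17.6, 22.6 and 31.9 CPM in control libraries. The highest library was knock-down 5 and the lowest control 2, and control 3 lay above 4 of the knock-down libraries. FEV averaged 28.3 ± 5.36 CPM in knock-down and 23.2 ± 5.17 CPM in control libraries (SD, n = 6 each). The log2 fold change was 0.29 (SE 0.159), with an unadjusted p of 0.0910 and an adjusted p of 0.474 by edgeR. The 95% interval of the fold, 0.965 to 1.54, includes no change. Without knock-down 4 the log2 fold change was 0.30.

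ETS2 (ENSG00000157557.11, chr21:38805307-38824955, plus strand), a factor that the MAP kinase pathway activates by phosphorylation, lies 143526 bases from ERG on chromosome 21 and was abundant where ERG was barely counted. It was at 68.9, 86.7 and 106.6 CPM in knock-down libraries, against 67.3, 85.7 and 105 CPM in control libraries. Its 2 group ranges were nearly the same. ETS2 averaged 87.8 ± 12.96 CPM in knock-down and 86.0 ± 12.97 CPM in control libraries (SD, n = 6 each). The fitted log2 difference was 0.03 (SE 0.124, edgeR adjusted p = 0.950), with a 95% interval from -0.23 to 0.29.

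ETS1 (ENSG00000134954.14, chr11:128458761-128587558, minus strand), the founding member of the family and known from lymphocytes and endothelium, lies 98976 bases from FLI1 on chromosome 11. Its level was 0.251, 0.693 and 18.4 CPM in knock-down libraries, against 0.426, 0.971 and 1.47 CPM in control libraries. The highest value was that of knock-down 4, and the next highest of the knock-down libraries was at 1.35 CPM, within the control range. Knock-down 4 had 431 reads of ETS1, and no other library had more than 37. ETS1 averaged 3.63 ± 7.22 CPM in knock-down and 0.927 ± 0.379 CPM in control libraries (SD, n = 6 each). The log2 fold change was 1.96 (SE 0.897), with an unadjusted p of 0.0449 and an adjusted p of 0.380 by edgeR. Without knock-down 4 it was -0.42 (SE 0.403, edgeR adjusted p = 0.721), so the direction turned with that library. With all 12 libraries kept, limma-voom gave 0.30 (adjusted p = 0.908). ETS1's biological coefficient of variation, 0.974, stood at the 99.9th percentile of the tested genes, where that of FLI1, 0.156, stood at the 19.8th.

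ETV1 (ENSG00000006468.13, chr7:13891228-13991425, minus strand) and ETV4 belong to the PEA3 group of ETS factors, which act downstream of growth factor receptors and MAP kinase and are repressed by CIC. ETV1 was at 3.71, 5.61 and 19.6 CPM (lowest, median and highest) in knock-down libraries, against 4.48, 7.79 and 12.7 CPM in control libraries. Knock-down 4 again held the highest value and control 6 the next, and the other knock-down libraries reached at most 6.18 CPM. ETV1 averaged 7.59 ± 5.97 CPM in knock-down and 7.77 ± 2.93 CPM in control libraries (SD, n = 6 each), with a log2 fold change of -0.03 (SE 0.375, edgeR adjusted p = 0.983). Without knock-down 4 the log2 fold change was -0.58 (SE 0.247), with an unadjusted p of 0.0324 and an adjusted p of 0.405 by edgeR.

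ETV4 (ENSG00000175832.12, chr17:43527844-43579620, minus strand) had 2 to 145 reads per knock-down library and 2 to 9 per control library. In CPM it was at 0.0728, 0.316 and 6.17 in knock-down libraries, against 0.0759, 0.134 and 0.358 in control libraries. All 145 reads at the top were those of knock-down 4, and the next highest library of all was at 0.381 CPM. ETV4 did not pass the low-count filter. With no filter its log2 fold change was 2.73, with an unadjusted p of 0.0364 and an adjusted p of 0.528 by edgeR. With counts summed by title number it was 2.53, with an unadjusted p of 0.0108 and an adjusted p of 0.335 by edgeR. Both of these fits include the 145 reads of knock-down 4, and no p-value of ETV4 without that library is given. The mean difference of log2 CPM was 1.05 over all libraries and 0.32 without knock-down 4. ETV4 overlaps DHX8 on the opposite strand over 68 exon bases, and DHX8 had 709 to 1564 reads per library. ETV5, the remaining gene of the PEA3 group and no member here, was at 36.3, 45.9 and 56.1 CPM in knock-down libraries, against 30.5, 54.2 and 69.7 CPM in control libraries, and its log2 fold change was -0.17 (edgeR adjusted p = 0.769).

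**Figure D2:**
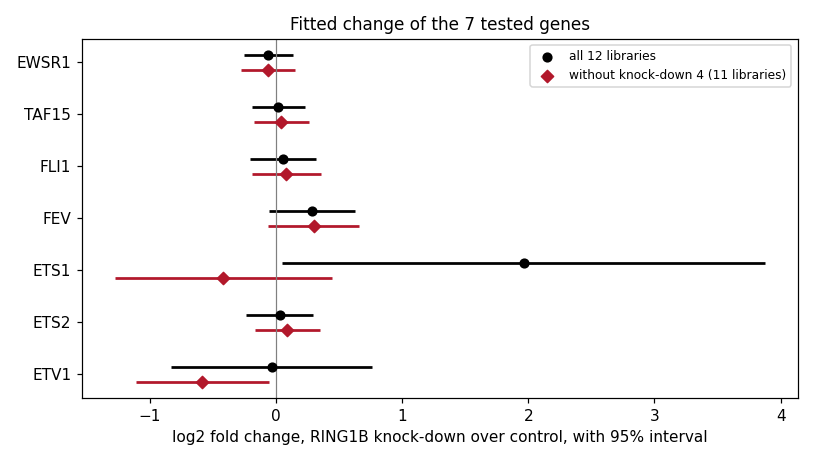
Log2 fold changes of RING1B knock-down over control (x axis) with 95% intervals for the 7 tested genes, from all 12 libraries (black circles) and without knock-down 4 (red diamonds, 11 libraries). EWSR1, TAF15, FLI1, FEV and ETS2 hardly move between the fits, while ETS1 goes to -0.42 without knock-down 4, against 1.96 with it, and ETV1 to -0.58, against -0.03.

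Levels of different genes were compared as CPM per kilobase of the gene's exons. Over the 12 libraries EWSR1 was at 35.2, 42.2 and 47.0 CPM per kilobase (lowest, median and highest) and TAF15 at 26.6, 29.9 and 38.4 CPM per kilobase. Next came ETS2 at 14.6, 18.9 and 23.2, FEV at 8.61, 12 and 17.5, and FLI1 at 7.06, 8.75 and 11.5 CPM per kilobase. The genes below them were ETV1 at 0.386, 0.640 and 2.04, ETS1 at 0.0350, 0.109 and 2.57, ETV4 at 0.0202, 0.0581 and 1.71, and ERG at 0, 0.0179 and 0.0898 CPM per kilobase. EWSR1 was above TAF15, TAF15 above ETS2, and FLI1 above ETV1 in 12 of 12 libraries. TAF15 and ETS2, and FLI1 and ETV1, were the neighbours whose ranges did not overlap.

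FEV and FLI1 were neighbours whose order depended on the length used. FEV was above FLI1 in 10 of 12 libraries per kilobase of all exons. Per kilobase of the principal coding transcript, FLI1 had a median of 17.3 CPM and FEV one of 13.1 CPM, and FLI1 was above FEV in 9 of 12 libraries. Counting only the FLI1 transcript from exon 5 on, where the fusion reads lie, its level was 23.9 CPM per kilobase in knock-down and 23.0 in control libraries if all reads fell there. On the scale of all exons, EWSR1 stood at the 93.4th percentile of tested genes, TAF15 at the 90.6th, ETS2 at the 84.2nd, FEV at the 76.4th, FLI1 at the 68.8th and ETV1 at the 22.4th.

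**Figure D3:**
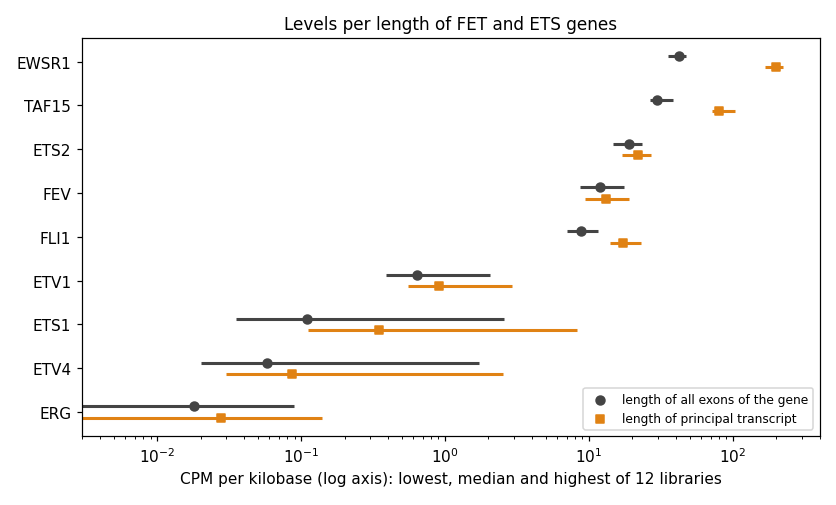
Level of each gene in CPM per kilobase on a log axis, as the lowest, median (symbol) and highest of the 12 libraries, for the length of all exons (grey circles) and of the principal transcript (orange squares); the lines of ERG run to 0, off the axis. EWSR1, TAF15, ETS2, FEV and FLI1 lie above the medians of ETV1, ETS1, ETV4 and ERG, and FEV and FLI1 change places with the length used.

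Within the ETS family, FLI1 was one of several factors of middle level when its whole length was used. Scaled to its transcript from exon 5, if all reads fell there, it would be at 23.9 CPM per kilobase in knock-down and 23.0 in control libraries. ETS2 was at 22.3 in knock-down and 21.9 in control libraries by principal transcript. Of the summed length-scaled level of 28 ETS genes, FLI1 held 4.10 ± 0.694% in knock-down and 4.15 ± 0.735% in control libraries (SD, n = 6 each), and it ranked 6th to 9th. FEV held 6.34 ± 1.28% in knock-down and 5.43 ± 1.18% in control libraries. By principal transcript lengths their order turned, with FLI1 at 6.43% in knock-down and 6.52% in control libraries, ranked 4th to 8th, and FEV at 5.48% in knock-down and 4.70% in control libraries. ETS2 held 8.76 ± 1.23% in knock-down and 8.99 ± 1.37% in control libraries. ERF, a repressor of the family, ranked first in every library, with 28.9 ± 1.92% in knock-down and 27.3 ± 3.68% in control libraries, and ELK1, a partner of serum response factor, ranked next.

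Of the other 21 ETS genes, 13 passed the low-count filter, 9 had a positive log2 fold change and none was called, with a median of 0.06. The smallest adjusted p among them belonged to ELK3, a repressor of the ternary complex group, at 67.1 ± 11.96 CPM in knock-down and 81.5 ± 15.7 CPM in control libraries (log2 fold change -0.28, edgeR adjusted p = 0.434). ETV2, which specifies endothelium in embryos, had a log2 fold change of 0.38 (edgeR adjusted p = 0.487), and GABPA, a factor of housekeeping promoters, 0.22 (edgeR adjusted p = 0.587).

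The balance of the fusion partners was read within each library as a ratio of length-scaled counts, which does not depend on library scaling. Lengths were those of all exons, and the size of a ratio depends on that choice. Per kilobase of all exons the medians were 42.2 CPM for EWSR1, 29.9 for TAF15 and 8.75 for FLI1. Per kilobase of the principal transcript they were 198.9, 80.7 and 17.3 CPM. The log2 difference between the groups is the same for either length. The ratio of FLI1 to EWSR1 was 0.183, 0.206 and 0.266 in knock-down libraries, against 0.169, 0.188 and 0.280 in control libraries. Both the highest and the lowest ratio were those of control libraries, control 6 and control 3. The mean log2 ratio was 0.11 higher in knock-down libraries, with an exact permutation p of 0.472 (two-sided, over all divisions of the libraries into 6 and 6, smallest possible p 0.00216). The ratio of TAF15 to EWSR1 was 0.614, 0.761 and 0.906 in knock-down libraries, against 0.624, 0.707 and 0.838 in control libraries. Knock-down 1 and knock-down 3 held its ends, and the mean log2 ratio was 0.07 higher in knock-down libraries (exact permutation p = 0.506). Adjusted over the 2 ratios, both exact permutation p-values were 0.506.

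**Figure D4:**
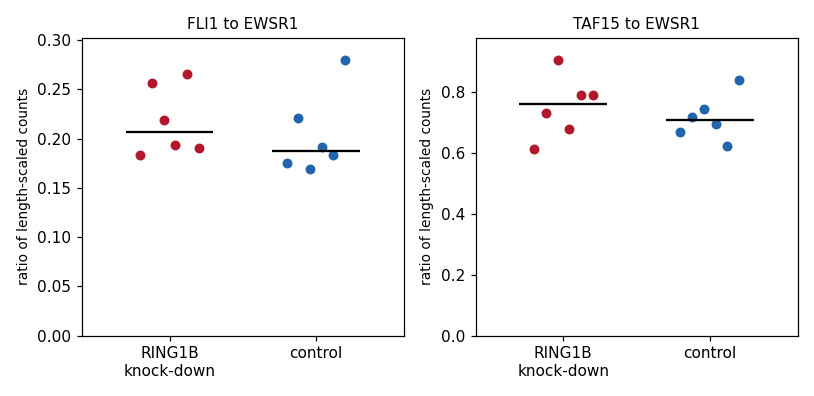
Ratio of length-scaled counts of FLI1 to EWSR1 (left) and of TAF15 to EWSR1 (right) in each of the 6 RING1B knock-down libraries (red) and the 6 control libraries (blue), with lines at the medians. The medians are 0.206 in knock-down and 0.188 in control libraries for FLI1, and 0.761 in knock-down and 0.707 in control libraries for TAF15, inside overlapping groups.

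FLI1 and EWSR1 did not vary together across libraries, which is given as a description. Over the 12 libraries, with log2 CPM centred within each group, Pearson's r between them was -0.05, and it was 0.30 between FLI1 and TAF15, 0.43 between FLI1 and ETS2 and -0.38 between FLI1 and FEV. Among 9776 tested genes with a mean of at least 10 CPM, the genes most like FLI1 were SKA3 (r of 0.913), which acts at kinetochores, NUDCD2 (0.913) and EID2 (0.910). Those most like EWSR1 were TOMM40 (0.907), the channel of the outer mitochondrial membrane, NAB2 (0.898), a corepressor of EGR factors, and LENG1 (0.897). The points share library composition and scaling, and the highest of so many values is high by selection.

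Of 30 genes known to be activated by EWSR1-FLI1, all were tested, 25 had a positive log2 fold change and 2 were called, with a median of 0.15 (21 positive and a median of 0.10 without knock-down 4). Over all 16519 tested genes, 8657 were positive, 49 were called and the median was 0.01. Of the 30 genes, 10 (33.3%) were highest in knock-down 4, against 16.7% of all tested genes. The counts are given as a description, because this list too was chosen with earlier results of these data known. CCK, which encodes the peptide cholecystokinin, averaged 51.9 ± 34.3 CPM in knock-down and 10.8 ± 2.73 CPM in control libraries, a log2 fold change of 2.26 (edgeR adjusted p = 0.0113). NPY1R, a neuropeptide Y receptor, averaged 73.3 ± 13.1 CPM in knock-down and 41.3 ± 5.54 CPM in control libraries, a log2 fold change of 0.83 (edgeR adjusted p = 0.0151). Next were ID2 at 0.50 (edgeR adjusted p = 0.162) and FCGRT at 0.46 (edgeR adjusted p = 0.187). Among the Ewing sarcoma markers, 6 of which are also on that list, none was called and the median was 0.23. NKX2-2, the homeobox gene used to recognise this tumour, averaged 36.2 ± 8.29 CPM in knock-down and 27.9 ± 4.19 CPM in control libraries (log2 fold change 0.37, edgeR adjusted p = 0.309).

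Knock-down 4 was the library in which ERG, ETV1, ETV4 and ETS1 were each highest, 4 of the 9 genes. ERG and ETV4 did not pass the low-count filter. Of the 7 genes that did, 2 (28.6%) were highest there, against 16.7% of all tested genes. ETS1 was 25.9 times and ETV4 41.6 times the median of the other 11 libraries, and ETV1 was 3.20 times. ERG, at 0.681 CPM, was close to the next library at 0.592 CPM. In the same library FLI1 (66.0 CPM), EWSR1 (431 CPM), TAF15 (168 CPM) and ETS2 (68.9 CPM) ranked 8th to 11th of 12, and FEV (27.1 CPM) ranked 5th. Of the 9 genes, the 4 with the lowest levels were thus highest there and the other 5 were not. Outside the 9, 3 of the 13 tested other ETS genes (23.1%) were also highest there, against 16.7% of all tested genes. Named after their values were seen, they were ELF1, at 72.4 CPM against at most 66.5 CPM, ETV6 and SPI1. ETV6 was at 31.9 against at most 28.97 CPM, and SPI1 at 7.75 against at most 6.44 CPM. ETV2, a sparse ETS gene, ranked 6th there. Among the ETS genes that did not pass the low-count filter, ELF5 (4 reads) and ETV7 (2 reads) were highest there. ETV3L, ELF3, EHF, SPDEF and SPIB were not, and SPIC had no reads in any library. RNF2 there was at 12.9 CPM. Knock-down 3, whose title carries the same number, had ETS1 at 0.473, ETV1 at 3.71 and ETV4 at 0.0728 CPM.

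A list of 15 genes around CIC and MAP kinase feedback was set beside the PEA3 genes. It holds CIC, its partners ATXN1 and ATXN1L, the ubiquitin ligase genes COP1 and DET1 that act on PEA3 proteins, and the DUSP, SPRY, SPRED and PHLDA1 genes that rise with MAP kinase signalling. None of the 15 was called, 11 had a positive log2 fold change and the median was 0.12. Without knock-down 4, 4 were positive and the median was -0.11. Of the 15, 9 (60%) were highest in knock-down 4, against 2766 of the 16519 tested genes (16.7%). The shares are given as a description, because the list was chosen with earlier results of these data known. Several of its genes rise with the same signalling, so they are not independent of each other. Whether MAP kinase signalling or CIC had a part in the levels of ETV1 and ETV4 was not tested.

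Among those 9 genes, chosen here after their values were seen, DUSP6, a phosphatase of ERK, was at 60.6 CPM in knock-down 4, against at most 32.2 CPM in the other 11 libraries. DUSP4 was at 5.45 CPM against at most 2.45 CPM, DUSP5 at 22.1 CPM against at most 12.6 CPM, and SPRED3 at 5.15 CPM against at most 1.26 CPM. SPRY1, at 2.04 against at most 1.82 CPM, and SPRED2, at 69.4 against at most 66.5 CPM, were little above the next library. ETV5, of the same PEA3 group, was at 56.1 CPM and ranked 4th. By the smallest adjusted p, the list's first genes were ATXN1L at -0.43 (edgeR adjusted p = 0.345), COP1 at 0.16 (edgeR adjusted p = 0.535), SPRED1 at -0.27 (edgeR adjusted p = 0.536) and SPRY2 at 0.42 (edgeR adjusted p = 0.609), all log2 fold changes.

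**Figure D5:**
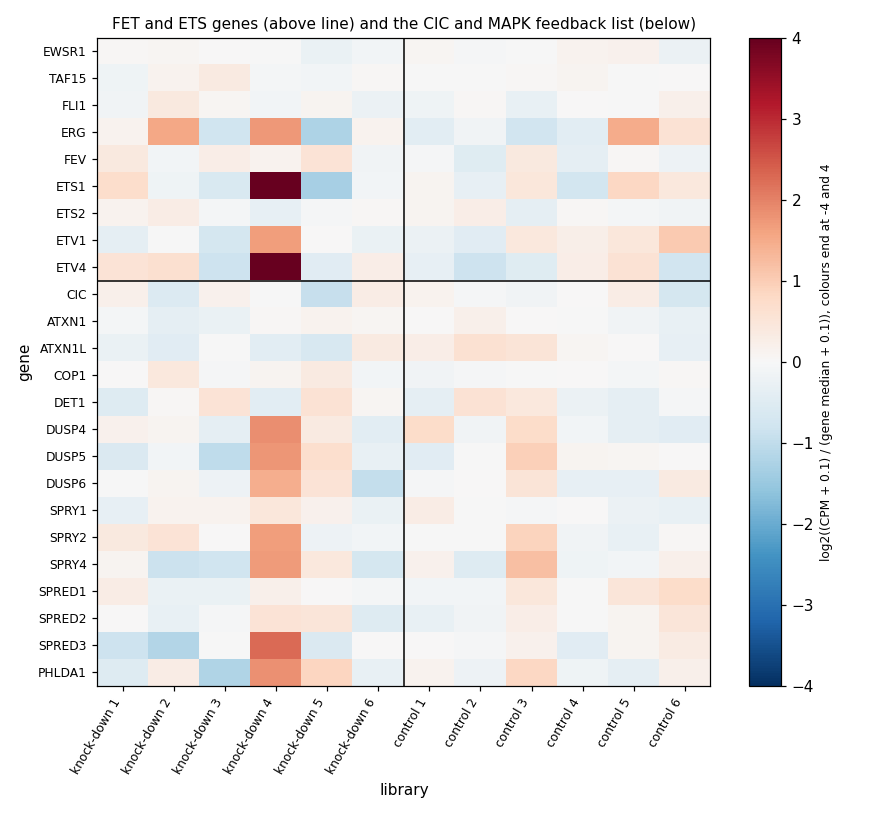
Level of each gene (rows) in each library (columns, knock-down left of the black line and control right) as log2 of (CPM + 0.1) over the gene's median + 0.1; the 9 FET and ETS genes stand above the horizontal line and the 15 genes of the CIC and MAP kinase list below it. The column of knock-down 4 is high for ETS1, ETV4 and ETV1. It holds the highest value of 9 of the 15 genes below the line, although SPRY1 (0.46) and SPRED2 (0.55) are only slightly raised there. The rows of EWSR1, TAF15 and FLI1 stay pale throughout.

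ETS1 was also 1 of 37 tested genes that were at least 5 times higher in knock-down 4 than in any other library, and it ranked 9th by that ratio. In no other library did more than 1 gene stand out so. The 37 genes, named after their values were seen, include MMP1, a collagenase, at 342 CPM against at most 11.5 CPM, COL4A2, a basement membrane collagen, at 149 against 5.25 CPM, FN1, fibronectin, at 1806 against 104.6 CPM, and TNC, tenascin C, at 493.2 against 40.3 CPM. KDM5C, a histone demethylase gene, was at 60.2 against 3.38 CPM. Summed leukocyte markers were also highest in knock-down 4, at 36.1 CPM, against at most 18.4 CPM in the other knock-down libraries and 27.4 CPM in control libraries. Summed endothelial markers were at 104 CPM there, within the control range of 67.6 to 114 CPM, but EGFL7 made up 71.8 CPM of that sum. Of the 7 endothelial markers tested, 3 (42.9%) were highest in knock-down 4, against 16.7% of all tested genes. Among them were CDH5 at 2.17 CPM, against at most 1.05 CPM in control libraries, and CLDN5 at 15.1 CPM, against at most 14.5 CPM. EMCN went the other way, at 5.37 CPM in knock-down 4, under the control range of 6.78 to 9.85 CPM. The part of host cells or of the library itself in the levels of ETS1, ETV1 and ETV4 was not tested.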

How the data were processed

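The authors deposited 1 table of raw counts per gene. Per the submitters' processing notes, STAR 2.6.0a, hg38, featureCounts, limma 3.40.2 and R 3.6.0 were used; how strand, reads aligning to several places and host reads were treated is not given in the sources used here. Coordinates, exons and sequences are those of GENCODE release 29 on hg38, the annotation whose exons the table carries. The members and gene lists were chosen with earlier results of these data known.

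Counts were fitted in R 4.3.3 with edgeR 4.0.16 (filterByExpr, TMM factors, robust quasi-likelihood F test, no covariate). It tested 16519 genes, and calls were made below 0.05 after Benjamini-Hochberg adjustment over all of them. The filter's genes held at least 99.72% of each library's counts. Standard errors and 95% intervals come from the F statistic and cover the spread between libraries. ERG and ETV4, outside the filter, are given as differences of mean log2 CPM (prior count 2), and also by the alternative fits that kept them. Ratios were compared by exact permutation. The closest pair of libraries within a group had a chi-square per degree of freedom of 12.05, so no such pair differed by counting error alone. Whether libraries that share a title number came from the same tumour or animal is not given.

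Named genes were the members, RNF2, each list's called genes and up to 4 of its tested genes with the smallest adjusted p, and the 3 genes most like FLI1 and EWSR1; others are said to be outside this rule. Alternatives were other scaling factors, other filters, DESeq2 1.42.0, limma-voom (limma 3.58.1), title number or letter in the fit, and each library left out. The unused columns of samples numbered 0.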

Additional observations from a re-analysis of the deposited data

Results flagged for a closer look

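In the 6 knock-down libraries, ETS1 was at 18.4 CPM in knock-down 4 and at most 1.35 CPM in the other 5. ETV4 was at 6.17 CPM in knock-down 4, against at most 0.381 CPM in the others of its group, and ETV1 at 19.6 CPM, against at most 6.18 CPM. The summed leukocyte markers were at 36.1 CPM in knock-down 4 and at most 18.4 CPM in the others. In each of these groups of 6, the gap of knock-down 4 to its nearest neighbour exceeded 0.625 of the group's range, the 95% limit of Dixon's test. The gap was 0.940 of the range for ETS1, 0.950 for ETV4 and 0.845 for ETV1. For the leukocyte sum it was 0.626, barely over the limit. Such gaps were looked for in 32 groups, and chance gives about 1 in 20. The cause of these gaps was not tested.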

How the results depend on the processing

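None of the 7 tested genes was called under the alternatives that gave an adjusted p, the lowest of which was 0.260, by edgeR for ETS1 without knock-down 6; DESeq2 gave ETS1 1.97 with no adjusted p. Of 257 alternatives over all results, 21 turned the direction of a tested value, and ERG, untested, turned to -0.085 without knock-down 2 and -0.12 without knock-down 4. The count of called genes, 49, was 356 with DESeq2, 91 with the title number as a random effect, 7 with counts summed by title number, 28 with the title letter as a covariate and 108 without control 6, knock-down 4 and knock-down 5 together, the libraries that stood apart. Leaving out 1 library gave 16 (without control 3 or knock-down 1) to 79 (without knock-down 4), with 19, 20 and 28 without control 1, 2 and 4, 31 without knock-down 3 and 77 without control 6. Turned values were TAF15 -0.00807 (summed by title number) and -0.00107 (title letter), ETV1 0.14 and ETS2 -0.031 (title letter), ETS1 -0.16 (without the 3 libraries) and the TAF15 to EWSR1 log2 ratio -0.00784 (mean per title number). With 1 library left out, log2 fold changes ran from -0.066 to 0.050 for TAF15, -0.030 to 0.11 for FLI1, -0.58 to 0.16 for ETV1, -0.42 to 2.21 for ETS1 and -0.042 to 0.091 for ETS2. EWSR1 ran from -0.10 to -0.02, FEV from 0.21 to 0.39, and the differences of mean log2 CPM of ERG from -0.12 to 0.53 and of ETV4 from 0.32 to 1.38. The FLI1 to EWSR1 log2 ratio ran from 0.05 to 0.21. The FLI1 share of the ETS family, 4.12% over 12 libraries, was 6.47% by principal transcript lengths, an alternative chosen after seeing the data. ETS1, at 1.96 by edgeR, was 0.30 by limma-voom and 0.33 with the title number as a random effect. ETS1 had no value under the filter of 1 CPM in 6 libraries, nor ERG and ETV4 under DESeq2 and voom. The cause of these shifts was not tested. No paired analysis was possible because no title number occurs in both groups and other replicate numbers follow accession order. The 8 title numbers, 4 of them on 2 libraries each, gave a correlation of -0.125 as a random effect. With so few reads, ERG, ETV4 and ETS1 allow no statement on modest differences.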
